A study of Mus musculus with 16 samples.

Results

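Notch receptors, ligands and targets were followed in mouse pulmonary endothelial cells (ECs) as 10 genes picked by their symbols, out of 54532 genes in each deposited table. They were the receptors Notch1, Notch2 and Notch4, the ligands Dll1, Dll4, Jag1 and Jag2, and the target genes Hey1, Hey2 and Hes1, and all 10 were found and all 10 passed the filter on low values. RNA of bead-isolated lung ECs was sequenced in bulk in a pair of experiments. The first compared male WT mice (C57/BL6J) of 8 weeks that had received saline (n = 4) or 10 mg/kg LPS (n = 6) into the trachea. LPS (lipopolysaccharide), from the outer membrane of bacteria, provokes acute lung injury. The second compared adult Fgfr1 loxP/loxP littermates (n = 3) with Fgfr1 iΔEC/iΔEC mice (n = 3), in which a tamoxifen-inducible Cre under the VE-cadherin promoter deletes the floxed Fgfr1 in ECs. Both of these groups had received tamoxifen at 100 mg/kg and both received 2 mg/kg LPS, so neither is an unchallenged control. RNA was taken 24 h after instillation in every group. Selection was for cells that carry CD31 and lack CD45, and whether animals were pooled is not given in the sources used here. The labels do not say that libraries came from separate animals, so p-values measure only the spread between these libraries, which may be technical.

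Notch receptors are cell surface proteins that are switched on by Delta-like and Jagged ligands on a neighbouring cell. Binding exposes the receptor to cleavage by ADAM proteases and then by γ-secretase, and the freed intracellular domain joins the DNA-binding protein RBPJ and a Mastermind coactivator to turn on genes of the Hes and Hey families, which encode transcriptional repressors. In blood vessels Dll4 and Notch1 restrain sprouting, and Notch activity together with Hey1 and Hey2 marks arterial identity. Notch4 is a receptor found mainly in ECs, whereas Notch2 is also used by myeloid and B cells.

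The receptor genes lie at chr2:26457903-26516663 (Notch1, minus strand), chr3:98013527-98150361 (Notch2, plus strand) and chr17:34564268-34588503 (Notch4, plus strand) on GRCm38. Ligand genes lie at chr17:15367354-15376872 (Dll1, minus strand), chr2:119325784-119335962 (Dll4, plus strand), chr2:137081456-137116644 (Jag1, minus strand) and chr12:112907819-112929776 (Jag2, minus strand). The target genes lie at chr3:8663359-8667256 (Hey1, minus strand), chr10:30832359-30842801 (Hey2, minus strand) and chr16:30064384-30067796 (Hes1, plus strand). All are protein-coding genes with the same ends in GENCODE M21. Notch1, Notch2, Notch4, Dll1, Dll4 and Jag2 overlap other annotated genes, among them 0610009E02Rik on the opposite strand of Notch1 and Gm14207 on the opposite strand of Dll4. The strandedness of the libraries is not given in the sources used here, so reads of such partners cannot be told apart.

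Of the 10 genes, 8 had a promoter in the RefSeq table (GRCm38.p6), and Hey1 and Hes1 did not. The windows ran from 250 bases before the start of the RefSeq gene to 50 bases after it, and both strands were searched for the letters TGGGAA, the core recognised by RBPJ, and for TGACTCA, the site of the AP-1 factors. These words were chosen after the windows had been read. TGGGAA was present in 25.6% of 32851 promoter windows and TGACTCA in 5.2%. Among the 9 windows of the 8 genes (Dll1 had 2), TGGGAA was in that of Hey2 alone and TGACTCA in that of Notch4 alone. The 250 bases before the start are shown for these genes and for Dll4, the ligand gene with the lowest log2 fold change in LPS, which held neither word. Sequences run 5′ to 3′ on the strand of the gene, at chr10:30842784-30843033 (Hey2, minus strand), chr17:34564045-34564294 (Notch4, plus strand) and chr2:119325534-119325783 (Dll4, plus strand), with letters of a matched word in capitals. In Hey2 and Notch4 a word spans the start itself, so only its first letters stand at the right end.
Hey2: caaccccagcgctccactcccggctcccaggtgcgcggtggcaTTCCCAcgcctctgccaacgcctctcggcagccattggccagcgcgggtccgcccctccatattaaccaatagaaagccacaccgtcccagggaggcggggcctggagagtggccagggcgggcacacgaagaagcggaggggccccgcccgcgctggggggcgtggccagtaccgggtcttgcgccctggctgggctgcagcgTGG
Notch4: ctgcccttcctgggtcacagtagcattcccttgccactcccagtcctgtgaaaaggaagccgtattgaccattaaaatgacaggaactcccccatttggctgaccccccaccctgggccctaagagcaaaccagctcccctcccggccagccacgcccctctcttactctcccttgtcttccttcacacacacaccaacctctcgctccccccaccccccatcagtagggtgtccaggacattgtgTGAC
Dll4: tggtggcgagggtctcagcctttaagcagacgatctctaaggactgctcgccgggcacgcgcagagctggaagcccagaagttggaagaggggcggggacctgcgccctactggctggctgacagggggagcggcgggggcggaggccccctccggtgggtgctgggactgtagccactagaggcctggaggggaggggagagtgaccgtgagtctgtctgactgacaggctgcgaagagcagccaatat
The words that span the start read, with 10 bases on each side:
Hey2 start: ggctgcagcgTGGGAAagaacctcca
Notch4 start: ggacattgtgTGACTCAggaaacagct
In Hey2 the second word, on the opposite strand, lies at positions -207 to -202 from the start. A match is a stretch of letters and not a measured binding site.

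The deposited unit was FPKM, fragments on a gene relative to gene length and library size, and a read total on genes of 13478726 to 18807007 per saline library and 17840221 to 19043015 per LPS library stood behind these values. Across the Fgfr1 groups the totals were 15969575 to 17002788 in loxP/loxP and 16642177 to 16943522 in iΔEC/iΔEC libraries. Notch1 rested on 1119 to 6767 reads per library of the first experiment, whereas Hey2 rested on 24 to 167. Reads are not independent molecules, and no interval is given on these read numbers. The confidence intervals given below with the fold changes come from the limma fit on FPKM values and measure the spread between libraries.

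Of the EC markers, the 10 genes of the list (Pecam1, Cdh5, Tek, Tie1, Kdr, Cldn5, Emcn, Erg, Esam and Eng) were read in all 16 libraries, and Cldn5, a protein of endothelial tight junctions, was the most abundant of them throughout. Their summed FPKM was 5871, 3341, 4027 and 3454 in the saline libraries and from 1445 (LPS 1) to 3373 (LPS 4) in LPS. The lists of other cells were read as well. Leukocyte genes (Ptprc, Laptm5, Coro1a, Cd52, Rac2 and Lcp1, led by Coro1a) summed to 196, 150, 76.3 and 132 FPKM in saline and to between 614 and 1482 in LPS. Macrophage genes, led by Lyz2, summed to 1196, 535, 849 and 425 FPKM in saline and to between 2181 and 4719 in LPS. Most of this sum was Lyz2, with 1075 FPKM in saline 1 and 3311 in LPS 1, the highest library. As the mean log2(FPKM + 1) of a list, the endothelial list was lower by 0.76 in LPS (difference -0.76, exact permutation p = 0.00952, adjusted p = 0.0214 over 9 lists), and the leukocyte and macrophage lists were higher by 2.81 and 2.71 (exact permutation p = 0.00476 and adjusted p = 0.0214 for each), all two-sided, with the groups apart in these 3 lists. The neutrophil list, led by S100a9, was higher by 2.65 (adjusted exact permutation p = 0.0214), with saline 1 at 5.55 among LPS libraries of 5.31 to 6.96. Differences of the remaining lists were 1.17 (erythroid, adjusted exact permutation p = 0.0257), -0.57 (fibroblast, 0.0429), -0.82 (lymphocyte, 0.0918), -0.59 (epithelial, 0.161) and -0.28 (mural, 0.405), with overlapping groups. Single markers without a read were Marco in saline 1, Ly6g in saline 4 and Lum in saline 3. The endothelial difference was -1.30 with quantile normalization. Without saline 2 or saline 4 the endothelial, leukocyte, neutrophil and macrophage lists missed an adjusted p of 0.05. With fewer libraries the smallest p that this test can reach is larger. With any 1 library left out the unadjusted exact permutation p of the leukocyte and macrophage lists was at most 0.0119, with differences of at least 2.57 and 2.62. Without saline 1 the epithelial and mural differences were -0.31 and -0.0036. The fibroblast call was lost in 8 of 10 tests that left out 1 library (all but saline 3 and LPS 6), and the erythroid call without saline 2, saline 4, LPS 1, LPS 2 or LPS 4. By limma 6 of the 6 leukocyte, 7 of the 8 neutrophil and 6 of the 8 macrophage genes were higher in LPS, and so were 3 of the 4 erythroid genes, where 29.5% of all genes tested were higher. Lower were 6 of the 10 endothelial, 4 of 6 fibroblast, 3 of 9 epithelial, 2 of 5 lymphocyte and 1 of 7 mural genes and 1 macrophage gene, Siglecf (log2 fold change -0.53, limma adjusted p = 0.0402), where 23.7% of all genes were lower.

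Some libraries stood apart before any Notch gene was considered. LPS 1 had the lowest endothelial sum (1445 FPKM) and the highest leukocyte and macrophage sums. LPS 6 had the lowest leukocyte sum of its group. Saline 1 had the highest neutrophil list of its group, and saline 3 the lowest leukocyte list. Values without each of these libraries are given for the Notch genes where they change a call or its direction. In bulk RNA, fewer cells of a type and less RNA per cell cannot be told apart, and this holds for each difference between saline and LPS that follows.

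In ECs of LPS mice 5 of the 10 Notch genes, with Hey2 among them, were called lower and 1 was called higher. With libraries scaled on the endothelial list the counts were 1 lower and 3 higher, and without saline 2 they were 3 lower and 1 higher. A filter of 2 FPKM left 4 lower and took out Hey2, whose LPS mean lay under the 0.5 FPKM of the main filter. The target gene Hey1 fell most of the 10, with a mean FPKM 4.31 times lower than in saline. The ligand Dll4 and the receptors Notch1 and Notch4 were lower as well. The target gene Hey2 entered the test through its saline libraries, so its call as lower is given as a value only. Notch2 moved the other way and rose 2.58-fold in mean FPKM. Dll1, Jag1, Jag2 and Hes1 did not pass the test. The test was limma on log2(FPKM + 1) over 14893 genes (mean FPKM of 0.5 or more), and a gene was called where its p, adjusted by Benjamini and Hochberg, did not exceed 0.05. Against the 1 gene of 10 that was higher and the 5 of 10 that were lower (Hey2 included), 29.5% of all genes tested were higher and 23.7% were lower. The split over all genes was 4399 higher and 3529 lower, and it became 3473 and 4621 with scaling on total reads, 3570 and 4295 with quantile normalization and 7419 and 777 with scaling on the endothelial list. Without saline 2 it was 3825 higher and 2896 lower of 14820 genes, and with a filter of 2 FPKM 3881 and 2419 of 10849. With a log2 fold change of at least 1 in addition, 1 gene was higher (11.9% of all genes) and 3 were lower (6.79% of all genes). The groups did not overlap in 3 of the 10 genes, Notch1, Notch2 and Hey1, and in 39.4% of all genes tested. The median log2 fold change was -0.45 over the 10 genes and 0.01 over all genes tested.

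**Figure D1:**
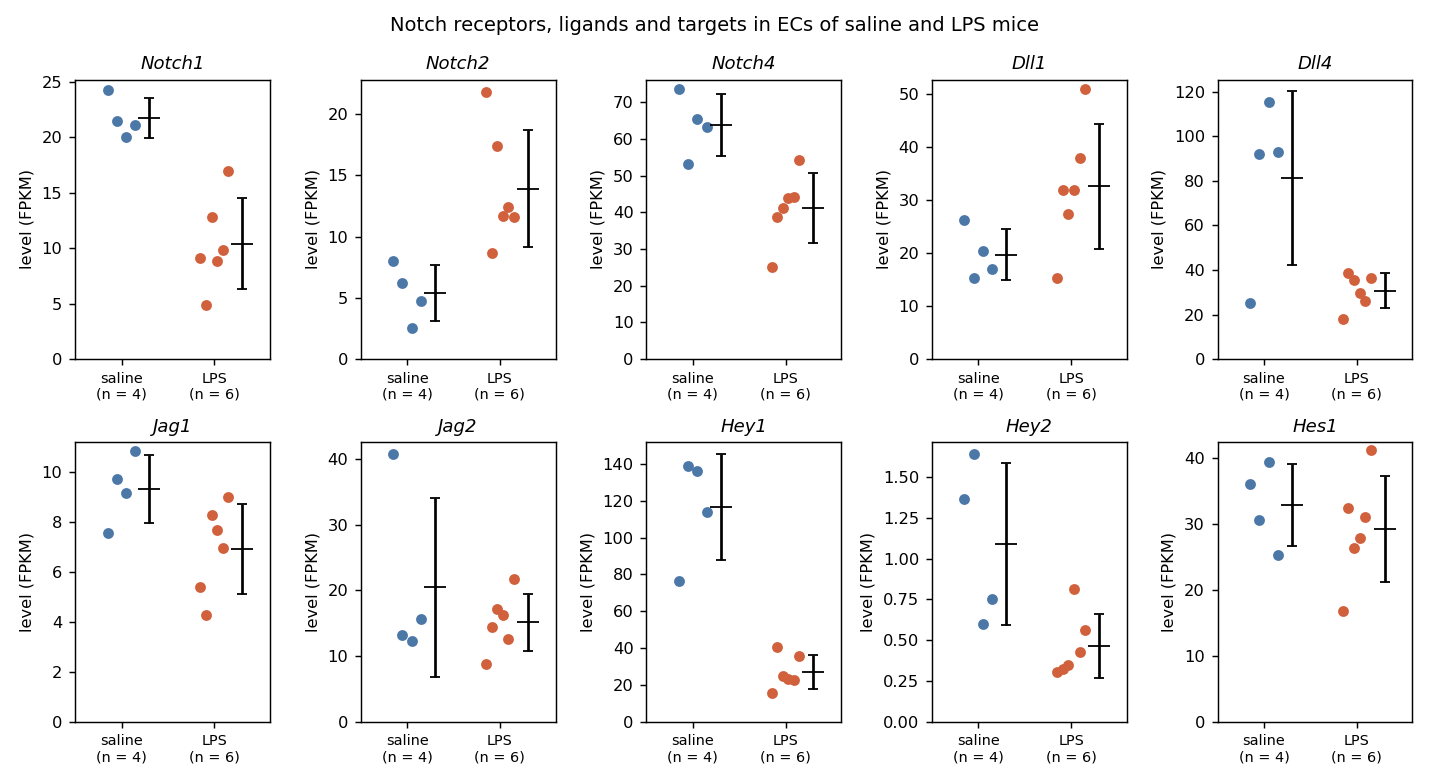
Level of each gene in FPKM (vertical axes, from 0) in the 4 saline (blue) and 6 LPS (orange) libraries, with the group mean and SD in black. All 6 LPS libraries of Hey1 lie at or under 40.4 FPKM and all 4 saline libraries at or above 76.6, while Dll4 in saline 1 (25.2) lies among the LPS libraries.

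Among the receptors, Notch4 was the most abundant in every library of saline mice. Its level was 73.7, 53.0, 65.3 and 63.3 FPKM in saline 1 to 4, and in LPS the lowest, median and highest were 25.1, 42.5 and 54.1. The lowest value belonged to LPS 1, and LPS 6 lay above saline 2, so the groups overlapped. The log2 fold change was -0.64 (SE 0.19, limma adjusted p = 0.0139), and quantile normalization gave -1.14.

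Notch1, the receptor that Dll4 acts on in sprouting vessels, was close to uniform in saline. It was read at 24.2, 21.5, 19.98 and 21.1 FPKM in saline 1 to 4, and at 4.85, 9.47 and 17.0 FPKM as the lowest, median and highest of LPS. Every LPS library was under every saline library, with LPS 2 lowest and LPS 6 highest. The mean was 21.7 ± 1.79 FPKM (SD, n = 4) in saline and 10.4 ± 4.10 (SD, n = 6) in LPS, a log2 fold change of -1.07 (SE 0.25, limma adjusted p = 0.00411).

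Notch2 was the receptor that rose. It was at 8.01, 6.25, 2.57 and 4.77 FPKM in saline 1 to 4, and the lowest, median and highest LPS values were 8.68, 12.03 and 21.8. The groups did not overlap, with LPS 2 just above saline 1. The log2 fold change was 1.24 (SE 0.28, limma adjusted p = 0.0035). LPS 1, highest for Notch2, also had the highest leukocyte and macrophage sums and saline 3, lowest for Notch2, had the lowest leukocyte sum (76.3 FPKM), but LPS 2, lowest for Notch2 within its group, had a leukocyte sum of 1391 FPKM, the second highest. The part of these cells in the rise of Notch2 was not tested. Without LPS 1 the log2 fold change of Notch2 was 1.11 (limma adjusted p = 0.00605), and without saline 3 it was 0.98 (adjusted p = 0.01).

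As a share of the summed FPKM of the 3 receptors, a measure that does not depend on how libraries are scaled, Notch4 made up 65.7% to 74.3% in saline and 44.8% to 74.1% in LPS. Notch1 made up 24.0% ± 1.81 (SD, n = 4) in saline and 15.4% ± 3.84 (SD, n = 6) in LPS, with no overlap between the groups (22.7% the lowest in saline, 20.52% the highest in LPS). The share of Notch2 was 5.89% ± 2.26 in saline and 21.8% ± 9.09 in LPS, from 14.0% up to 38.99% in LPS 1, all above the highest saline share of 7.74%. The sum of the 3 receptors was 90.9 ± 10.6 FPKM in saline and 65.5 ± 10.9 in LPS.

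The ligand with the highest mean in saline was Dll4, the Delta-like ligand of arteries and of sprouting tip cells. It was read at 25.2, 92.0, 115 and 92.9 FPKM in saline 1 to 4, so saline 1 lay far under the other saline libraries. In LPS the lowest, median and highest values were 17.9, 32.7 and 38.5 FPKM, all under the other 3 saline libraries. The log2 fold change was -1.22 (SE 0.38, limma adjusted p = 0.0184), and it was -1.71 without saline 1. Leaving out saline 2, saline 3 or saline 4 instead ended the call (limma adjusted p = 0.0554, 0.0595 and 0.0560), as did testing with no filter on low values (limma adjusted p = 0.0506).

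Dll1, another Delta-like ligand, had 26.1, 15.3, 20.4 and 16.9 FPKM in saline 1 to 4. Its lowest, median and highest LPS values were 15.3, 31.9 and 50.8 FPKM, with LPS 1 lowest and LPS 6 highest. LPS 1 lay among the saline libraries and the other LPS libraries lay above all of them. The log2 fold change was 0.64 (SE 0.27, limma adjusted p = 0.0682), which did not pass. Without LPS 1 it was 0.84 and without saline 1 it was 0.78, and each of these passed (limma adjusted p = 0.00653 and 0.0431), whereas quantile normalization gave 0.30.

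Jag1 was at 7.56, 9.73, 9.15 and 10.8 FPKM in saline and at 4.25, 7.32 and 8.97 as the lowest, median and highest of LPS, with a log2 fold change of -0.41 (SE 0.18, limma adjusted p = 0.0805). Jag1 thus did not pass, but it passed as lower without LPS 6 (-0.48, limma adjusted p = 0.0449), with scaling on total reads (-0.59, limma adjusted p = 0.0371) and with quantile normalization (-0.54, limma adjusted p = 0.0276). Jag2 was at 40.8 FPKM in saline 1 and at 13.2, 12.3 and 15.6 in the other saline libraries, and the LPS values of 8.79, 15.3 and 21.7 (lowest, median and highest) lay around the latter. Its log2 fold change was -0.28 (SE 0.32, limma adjusted p = 0.472), which did not pass, and turned to 0.09 without saline 1.

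Within the 4 ligands, the share of Dll4 was 25.3% in saline 1 and 70.6%, 73.4% and 68.2% in saline 2 to 4. In LPS the share of Dll4 was 36.4% ± 4.98 (SD, n = 6), at most 43.3%. Dll1 made up 15.8% ± 6.93 (SD, n = 4) in saline and 37.5% ± 5.78 (SD, n = 6) in LPS, and the lowest LPS share (30.9%) was above the highest saline share (26.2%, saline 1). Jag1 took 7.21% ± 0.951 in saline and 8.40% ± 2.18 in LPS, and Jag2 took 7.85% to 40.9% in saline and 15.1% to 19.5% in LPS. The ligands summed to 131 ± 23.8 FPKM in saline and to 85.3 ± 22.5 in LPS.

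**Figure D2:**
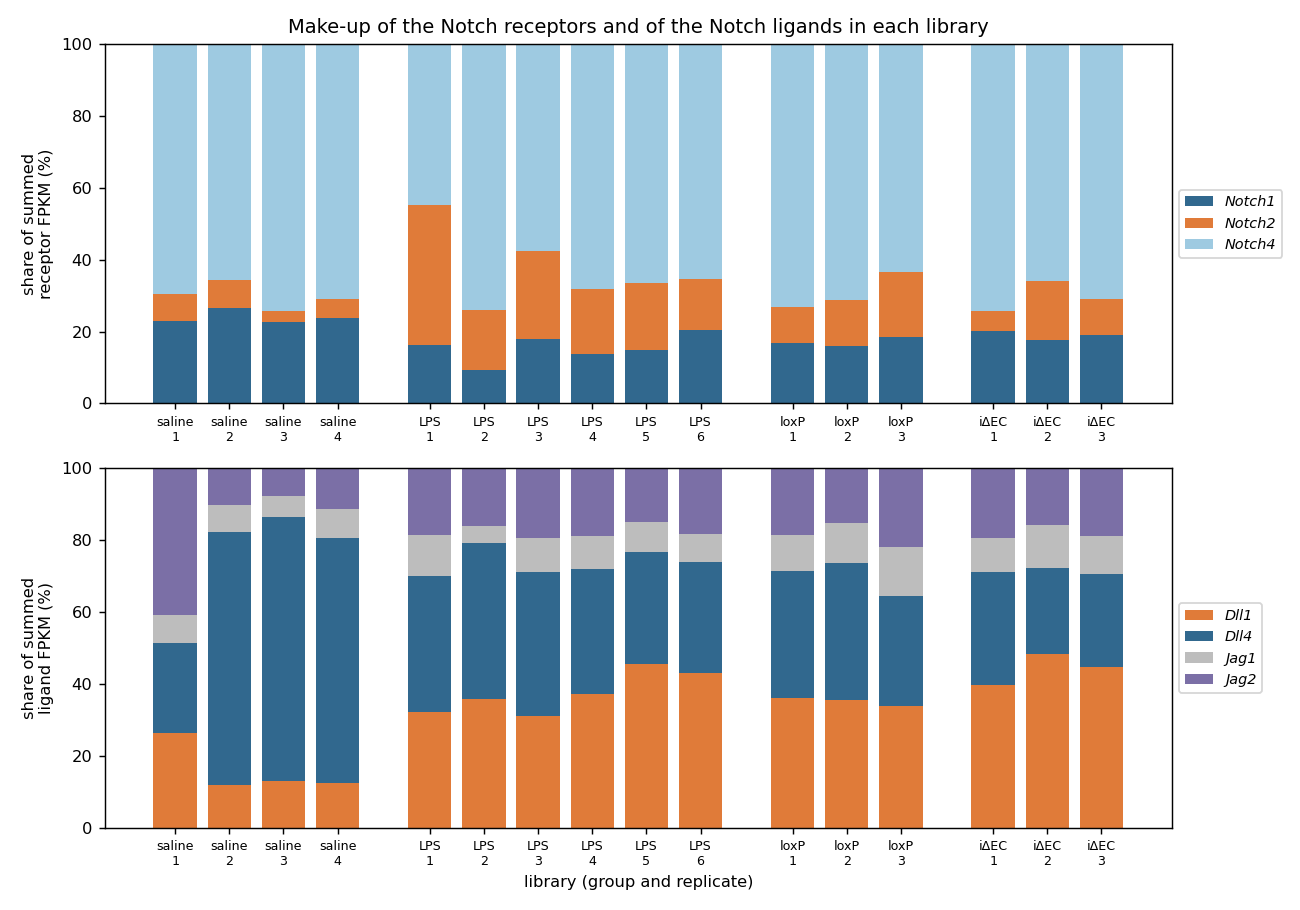
Share (percent) of each receptor in the summed FPKM of Notch1, Notch2 and Notch4 (upper) and of each ligand in the summed FPKM of Dll1, Dll4, Jag1 and Jag2 (lower), in each of the 16 libraries. Notch2 takes at most 7.74% in saline and at least 14.0% in LPS, and saline 1 stands apart in the lower panel with 25.3% Dll4.

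Of the target genes, Hey1 had the highest level of all 10 genes in saline on the scale per length. It was read at 76.6, 139, 136 and 114 FPKM in saline 1 to 4, and at 15.7, 24.1 and 40.4 FPKM as the lowest, median and highest of LPS. The groups did not overlap, and saline 1, the lowest of its group, was still above LPS 2, the highest of the other. Mean FPKM was 116 ± 28.8 (SD, n = 4) in saline and 27.0 ± 9.15 (SD, n = 6) in LPS, a ratio of 4.31, and the log2 fold change was -2.09 (SE 0.26, limma adjusted p = 7.57e-05). Leaving out any 1 library kept it between -2.28 and -1.95.

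Hey2, which with Hey1 acts in arterial differentiation, had the lowest level of the 10 genes in saline, not far above the filter of 0.5 FPKM. It was at 1.37, 1.64, 0.597 and 0.752 FPKM in saline 1 to 4 and at 0.308, 0.386 and 0.816 as the lowest, median and highest of LPS. The groups overlapped, since saline 3 and saline 4 lay under LPS 4. Hey2 passed the filter through its saline libraries, since its LPS mean and median lay under it. A call of Hey2 as lower therefore depends on the filter and is given as a value only. Its log2 fold change was -0.49 (SE 0.17, limma adjusted p = 0.029), and the call was lost without any 1 of saline 1, saline 2, LPS 1, LPS 2, LPS 3 or LPS 5 (limma adjusted p = 0.0525 to 0.104) or with no filter on low values (limma adjusted p = 0.0770). The size of the difference depends on the value added before the logarithm, since a pseudocount of 0.1 gave -1.04 (limma adjusted p = 0.0308) and limma-voom on the read numbers -1.19 (adjusted p = 0.0159).

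Hes1, a target of Notch in many tissues that other signals also induce, had 36.0, 30.6, 39.4 and 25.3 FPKM in saline 1 to 4. Its lowest, median and highest LPS values were 16.7, 29.4 and 41.1 FPKM, so that LPS covered the whole saline range. The log2 fold change was -0.19 (SE 0.22, limma adjusted p = 0.479), with a 95% confidence interval of -0.67 to 0.29. With quantile normalization Hes1 passed as lower (-0.59, limma adjusted p = 0.0359). Hey1 and Hes1, 2 targets of the same pathway, thus had intervals that do not meet, since that of Hey1 ran from -2.66 to -1.53.

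Since the endothelial list fell in LPS, the fit was repeated with each library scaled on the mean of this list, which asks how each gene moved relative to endothelial RNA. This scaling moved the median of all genes from 0.01 to 0.59. Hey1 (log2 fold change -1.35, limma adjusted p = 0.000436) was the 1 Notch gene of 10 that still fell, and Notch2 (1.90, adjusted p = 0.00119), Dll1 (1.37, adjusted p = 0.000106) and Hes1 (0.55, adjusted p = 0.0171) were higher. Notch1 was at -0.35 (adjusted p = 0.332), Dll4 at -0.48 (adjusted p = 0.282) and Hey2 at -0.19 (adjusted p = 0.372), none past the test, and Notch4, Jag1 and Jag2 turned to 0.10, 0.27 and 0.43 without passing. Relative to the shifted median of all genes, Hey1 was at -1.94, Dll4 at -1.07, Notch1 at -0.95, Hey2 at -0.78 and Notch4 at -0.49, Jag1 was at -0.32, Jag2 at -0.16 and Hes1 at -0.04, while Notch2 was at 1.31 and Dll1 at 0.78. Since this scaling multiplies each library by 1 factor, the signs relative to the median of all genes are largely fixed by construction.

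**Figure D3:**
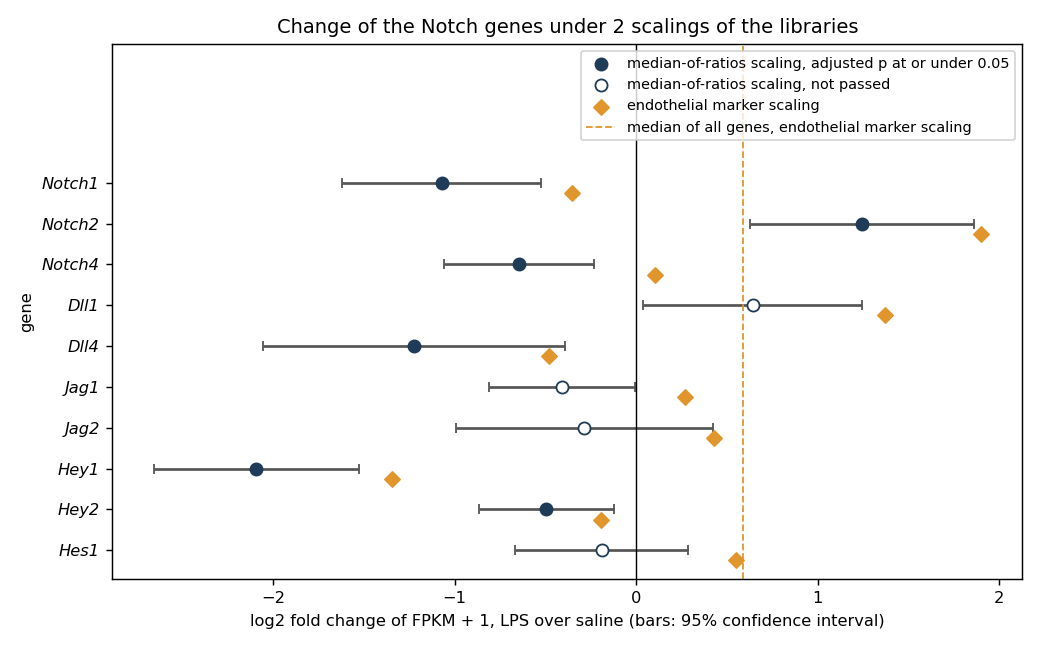
Log2 fold change of FPKM + 1 (horizontal axis, LPS over saline) of each gene with its 95% confidence interval under median-of-ratios scaling (circles, filled where the adjusted p was at or under 0.05) and under scaling on the endothelial list (diamonds). The dashed line marks the median of all genes under the latter, 0.59, and Hey1 at -1.35 is the diamond farthest to the left.

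Genes with the pattern most like each Notch gene over the 10 saline and LPS libraries were found among 7765 genes of at least 5 FPKM on average, by the root mean square difference of centred log2(FPKM + 1). For Notch1 they were 4931406P16Rik (0.158) and Plekhg1 (0.169), for Notch2 Pag1 (0.176) and Wdfy4 (0.189), and for Notch4 Rhbdf1 (0.0910) and Adcy4 (0.109). For Dll1 they were Pawr (0.213) and Mcam (0.227), for Dll4 Hs3st1 (0.154) and Arhgef15 (0.196), for Jag1 Nfic (0.106) and Rubcn (0.126), and for Jag2 Zfpm1 (0.161) and Entpd1 (0.184). Hey1 was nearest to Fmo1 (0.193) and Antxr1 (0.195), Hey2 to Zadh2 (0.161) and 2310022B05Rik (0.187), and Hes1 to Adgrl4 (0.135) and Hoga1 (0.167). A smaller difference means a closer pattern, and these libraries share their groups, so any gene that moved with LPS by a like amount comes near.

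The other genes of the pathway were 49 in 7 lists, and 41 of them passed the filter. Dlk1, Dlk2, Dll3, Dner, Hes2, Hes5, Hes7 and Neurl1a did not. In LPS 14 were higher, 11 were lower and 16 did not pass, with a median log2 fold change of -0.07, and the groups did not overlap in 17 of the 41. These shares lie near those of all genes given above for the same rules. With endothelial list scaling 22 were higher and 3 lower, where 7419 and 777 of all genes were. Without saline 2, saline 4, LPS 1, LPS 2 or LPS 5 there were 7 lower, and over all genes 2893 to 3368 were lower in these tests. A filter of 2 FPKM left 14 higher and 9 lower and took out Dtx1, whose LPS mean lay under the main filter.

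Of 10 genes of receptor processing, 6 were higher and 0 lower, where 29.5% and 23.7% of all genes were, and 4 did not pass. The log2 fold change was above 0 in 8 of them and under 0 in 2, with a median of 0.49. The γ-secretase subunits Psenen (27.8 ± 4.83 FPKM in saline, 51.4 ± 13.3 in LPS, log2 fold change 0.84, limma adjusted p = 0.00312) and Ncstn (32.8 ± 1.25 to 47.8 ± 4.60 FPKM, 0.52, adjusted p = 0.00169) rose. So did Furin, the protease that cleaves the receptor on its way to the surface (14.97 ± 4.54 to 36.8 ± 7.47 FPKM, log2 fold change 1.26, adjusted p = 0.000248), and Adam17 (0.69, adjusted p = 0.00055), a protease that sheds Notch and many other surface proteins. Adam10, the protease of ligand-induced cleavage, also rose (0.45, adjusted p = 0.0106). The groups did not overlap in any of the 6 that were called (39.4% of all genes). Quantile normalization left Ncstn at 0.09, which did not pass (limma adjusted p = 0.543), and brought Psenen to 0.40 and Adam17 to 0.42, which did. They are expressed in most cell types, the leukocyte list was higher in the same libraries by 2.81, and its part in these differences was not tested.

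Of the listed ubiquitin ligases of the Mind bomb and Neuralized families, all 4 that were tested passed and had groups apart, 3 lower and 1 higher. Of all genes 23.7% were lower, 29.5% were higher and 39.4% had groups apart. Mib1 and Mib2, the Mind bomb ligases that make Delta and Jagged ligands competent to signal, were at 13.3 ± 1.43 and 17.8 ± 1.56 FPKM in saline and at 8.09 ± 1.61 and 6.08 ± 1.25 in LPS (log2 fold changes of -0.67 and -1.43, limma adjusted p = 0.00323 and 2.05e-05). Neurl1b, of the Neuralized family, was lower by 1.63 on the log2 scale (-1.63, adjusted p = 0.000222). Neurl3, of the same family, rose from 22.9 ± 2.25 to 61.4 ± 6.04 FPKM (log2 fold change 1.38, adjusted p = 4.99e-06). Under endothelial list scaling Mib1 was at 0.03 and did not pass, while Mib2 (-0.73), Neurl1b (-1.06) and Neurl3 (2.12) kept their direction and their calls.

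Among the glycosylation enzymes, which tune the response of the receptor to its ligands, the fringe genes Lfng (log2 fold change 0.50, limma adjusted p = 0.0302, groups overlapping) and Rfng (-0.51, adjusted p = 0.00132) passed in opposite directions and 3 of 5 did not pass. Lfng lost its call without any 1 of saline 1, saline 2, LPS 1, LPS 4 or LPS 5 (limma adjusted p = 0.0548 to 0.0716), with no filter on low values (0.0630), with scaling on total reads (log2 fold change 0.30) and with quantile normalization (0.01, limma adjusted p = 0.963), and Rfng turned to 0.18 under endothelial list scaling. Of 9 turnover and inhibitor genes 3 were higher and 4 lower, against 29.5% and 23.7% of all genes. The Deltex ligases split, with Dtx4 (1.06 ± 0.385 to 5.81 ± 2.48 FPKM, log2 fold change 1.68, adjusted p = 0.00025) and Dtx2 (1.19, adjusted p = 0.000118) higher and Dtx3 (20.4 ± 1.22 to 9.15 ± 1.14 FPKM, -1.08, adjusted p = 1.77e-05) and Dtx1 (-0.64, adjusted p = 0.0367) lower. Dtx1 rested on 15 to 197 reads per library and lost its call when any 1 of LPS 1, LPS 2, LPS 4, LPS 5 or LPS 6 was left out (limma adjusted p = 0.0547 to 0.0679) or with no filter on low values (0.0891). Without saline 2 (1.69 FPKM) or saline 4 (1.90 FPKM), its highest libraries, Dtx1 fell under the filter of 0.5 FPKM and was not tested. Its LPS mean also lay under that filter, so Dtx1 entered the test through its saline libraries and its call is given as a value only. With a pseudocount of 0.1 Dtx1 was at -1.41 (limma adjusted p = 0.0505) and by limma-voom at -1.73 (adjusted p = 0.0414). Under endothelial list scaling neither Dtx3 (-0.36, limma adjusted p = 0.142) nor Dtx1 (-0.39, limma adjusted p = 0.158) passed. Nrarp, a target gene and inhibitor of Notch, was at 5.82 ± 0.808 FPKM in saline and 5.69 ± 1.90 in LPS (-0.07, adjusted p = 0.789). Without LPS 1 Nrarp was at 0.08, and under endothelial list scaling it passed as higher (0.56, limma adjusted p = 0.0209), under the shifted median of all genes of 0.59.

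In the transcription complex 3 of 9 genes were higher and 2 lower, shares near the 29.5% and 23.7% of all genes. Rbpj, the DNA-binding partner of the Notch intracellular domain, rose from 3.23 ± 0.436 to 7.75 ± 2.55 FPKM (log2 fold change 1.01, limma adjusted p = 0.00123), while the coactivator Maml2 fell from 8.30 ± 0.884 to 3.17 ± 0.922 FPKM (-1.18, adjusted p = 0.000198). Rbpj was thus higher in the same libraries in which Hey1 was lower. Of the other receptors, ligands and targets that passed the filter, Notch3, the receptor of mural cells, was lower (7.12 ± 2.53 to 2.60 ± 1.36 FPKM, -1.18, adjusted p = 0.00602), Egfl7, a secreted endothelial protein that binds Notch, was at -0.24 (adjusted p = 0.469), the target Heyl was at -0.61 (adjusted p = 0.0683), and Hes6, of the Hes family, was at 0.27 (adjusted p = 0.211). Leaving out saline 3 or LPS 6 made Heyl pass as lower (-0.86 and -0.74, limma adjusted p = 0.0124 and 0.0274), as did scaling on total reads (-0.76, limma adjusted p = 0.0350). Under endothelial list scaling Notch3 did not pass (-0.59, limma adjusted p = 0.0902), Maml2 was at -0.55 (adjusted p = 0.0419) and Egfl7 passed as higher (0.52, adjusted p = 0.0371), though under the shifted median of 0.59. With quantile normalization Egfl7 passed as lower instead (-0.81, limma adjusted p = 0.0200). The mural list, led by Acta2 or Pdgfrb, differed by -0.28 in the same comparison (adjusted exact permutation p = 0.405) and by -0.0036 without saline 1.

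**Figure D4:**
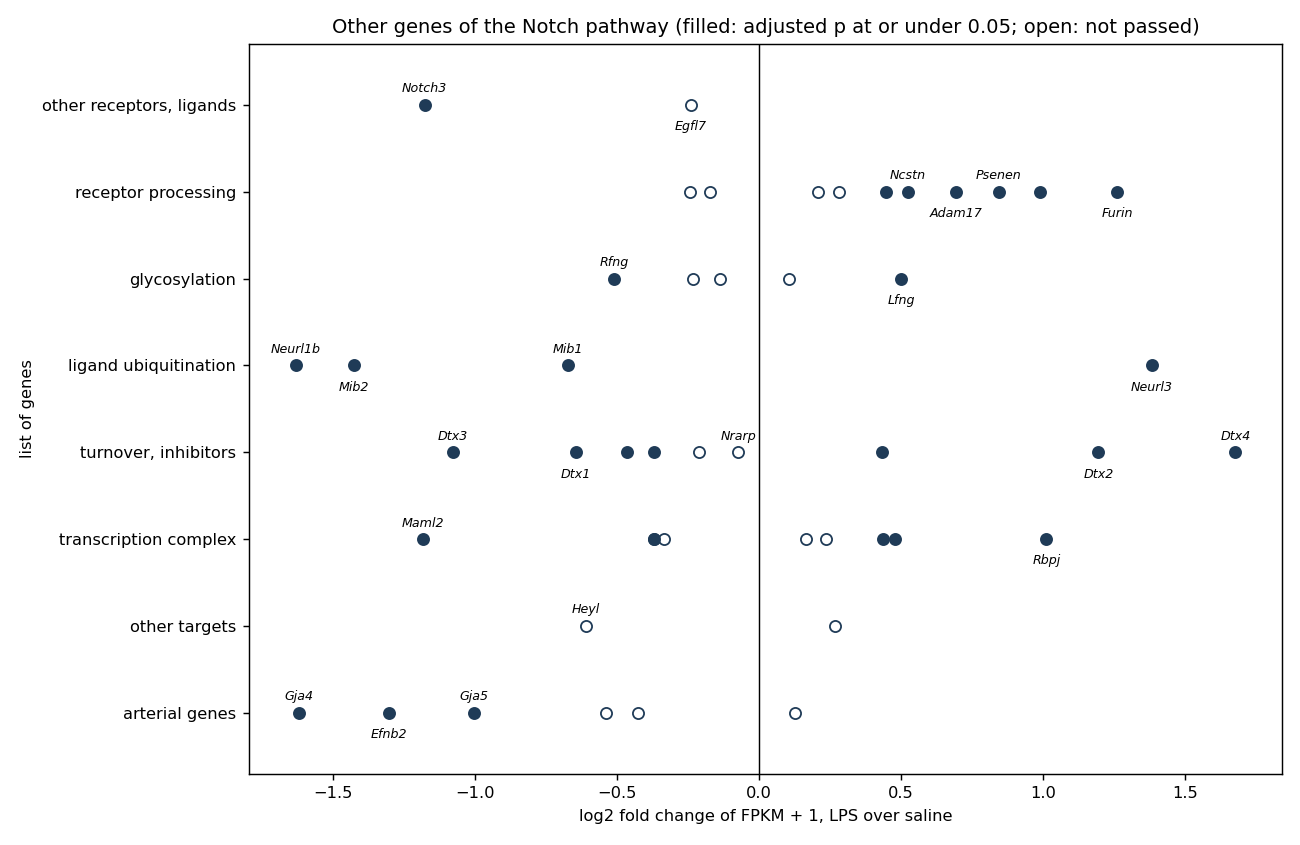
Log2 fold change of FPKM + 1 (horizontal axis, LPS over saline) of the other pathway genes and of 6 arterial genes, 1 row for each list, filled where the adjusted p was at or under 0.05 and open where it was not. The 6 filled points of receptor processing all lie to the right of 0, and the 3 filled arterial points all lie to the left.

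Genes of arterial ECs that are linked to Notch were read as a list of 6. Lower in LPS with the groups apart were 3 of them, where 23.7% of all genes were lower and 39.4% had groups apart. Gja4, the connexin of arterial endothelium, went from 132 ± 36.6 to 43.6 ± 16.6 FPKM (log2 fold change -1.62, limma adjusted p = 0.00052), Efnb2, the arterial ephrin, from 122 ± 20.9 to 50.5 ± 16.1 (-1.30, adjusted p = 0.000885) and Gja5, another arterial connexin, from 10.4 ± 2.24 to 4.88 ± 1.83 (-1.003, adjusted p = 0.00743). Unc5b (-0.54, adjusted p = 0.0767), Sox17 (-0.42, adjusted p = 0.144) and Cxcr4 (0.13, adjusted p = 0.751) did not pass, and the median of the list was -0.77. Under endothelial list scaling Gja4 (-0.87, adjusted p = 0.00467) and Efnb2 (-0.55, adjusted p = 0.0267) were still lower, and Gja5 (-0.35, adjusted p = 0.153) did not pass. A loss of arterial ECs from the fraction and less RNA of these genes per cell cannot be told apart here.

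In the second experiment the question was whether the Notch genes differed when Fgfr1 was deleted from ECs under LPS. Fgfr1 itself was at 2.90, 2.91 and 2.59 FPKM in loxP/loxP 1 to 3 and at 0.683, 1.41 and 1.15 FPKM in iΔEC/iΔEC 1 to 3, so every library matched its label, and some Fgfr1 RNA was still read in the latter. Its log2 fold change was -0.88 (95% confidence interval -1.26 to -0.51, limma adjusted p = 0.962). Of the 14945 genes tested 0 were called (0% of all genes), Fgfr1 and the 10 Notch genes included, while 661 genes (4.42%) had an unadjusted p under 0.05. The fit with the replicate number as a block also called 0 of the Notch genes, and in it Fgfr1 was at -0.88 (SE 0.15, limma adjusted p = 0.527). The adjusted p of the 10 Notch genes ran from 0.962 to 0.989, which does not show that they were alike in the 2 genotypes.

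Dll1 was the 1 Notch gene of 10 with no overlap between the genotypes (10.2% of all genes had none). It was at 40.1, 36.7 and 37.8 FPKM in loxP/loxP 1 to 3 and at 53.1, 43.4 and 66.1 FPKM in iΔEC/iΔEC 1 to 3. All 3 iΔEC/iΔEC libraries were above all 3 loxP/loxP libraries, with a log2 fold change of 0.47 (SE 0.16, 95% confidence interval 0.08 to 0.86), an unadjusted limma p of 0.0246 and an adjusted p of 0.962. With the replicate block the limma adjusted p was 0.593. The endothelial list was higher in iΔEC/iΔEC by 0.26, and scaling on it brought Dll1 to 0.21, with the median of all genes at -0.19.

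Notch1 was at 12.3, 10.1 and 15.9 FPKM in loxP/loxP and at 19.6, 13.1 and 17.4 in iΔEC/iΔEC. Its value was higher in iΔEC/iΔEC in 3 of 3 pairs of the same number, the groups overlapped, and the log2 fold change of 0.37 had a 95% confidence interval of -0.12 to 0.85. Notch4 (53.9, 45.1 and 54.7 against 71.8, 48.9 and 64.8 FPKM, log2 fold change 0.25, interval -0.16 to 0.66) and Hes1 (37.4, 37.7 and 25.9 against 40.3, 39.1 and 36.8 FPKM, 0.21, interval -0.17 to 0.60) had the same sign in 3 of 3 pairs, and Hey2 was lower in 3 of 3 (1.68, 2.25 and 1.05 against 0.794, 1.15 and 0.990 FPKM, -0.41, interval -0.87 to 0.06). None of these 4 passed.

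Hey1, the gene with the largest fall in LPS, was at 29.5, 21.9 and 33.3 FPKM in loxP/loxP and at 40.7, 12.1 and 28.2 in iΔEC/iΔEC. The iΔEC/iΔEC libraries spread to both sides of the others, and the log2 fold change was -0.20 with an interval of -1.19 to 0.80, the widest of the 10 genes. Dll4 was at 39.6, 39.3 and 34.4 against 41.9, 21.4 and 38.3 FPKM, with iΔEC/iΔEC 2 low in both Hey1 and Dll4 (log2 fold change of Dll4 -0.21, interval -0.80 to 0.39). This library also had the lowest endothelial list mean of its group, 7.31 on the log2 scale, and the highest leukocyte mean, 6.49, and their part in its values was not tested. The log2 fold changes of the other genes were -0.19 (Notch2, interval -1.03 to 0.64), 0.04 (Jag1, interval -0.37 to 0.46) and 0.11 (Jag2, interval -0.56 to 0.78).

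**Figure D5:**
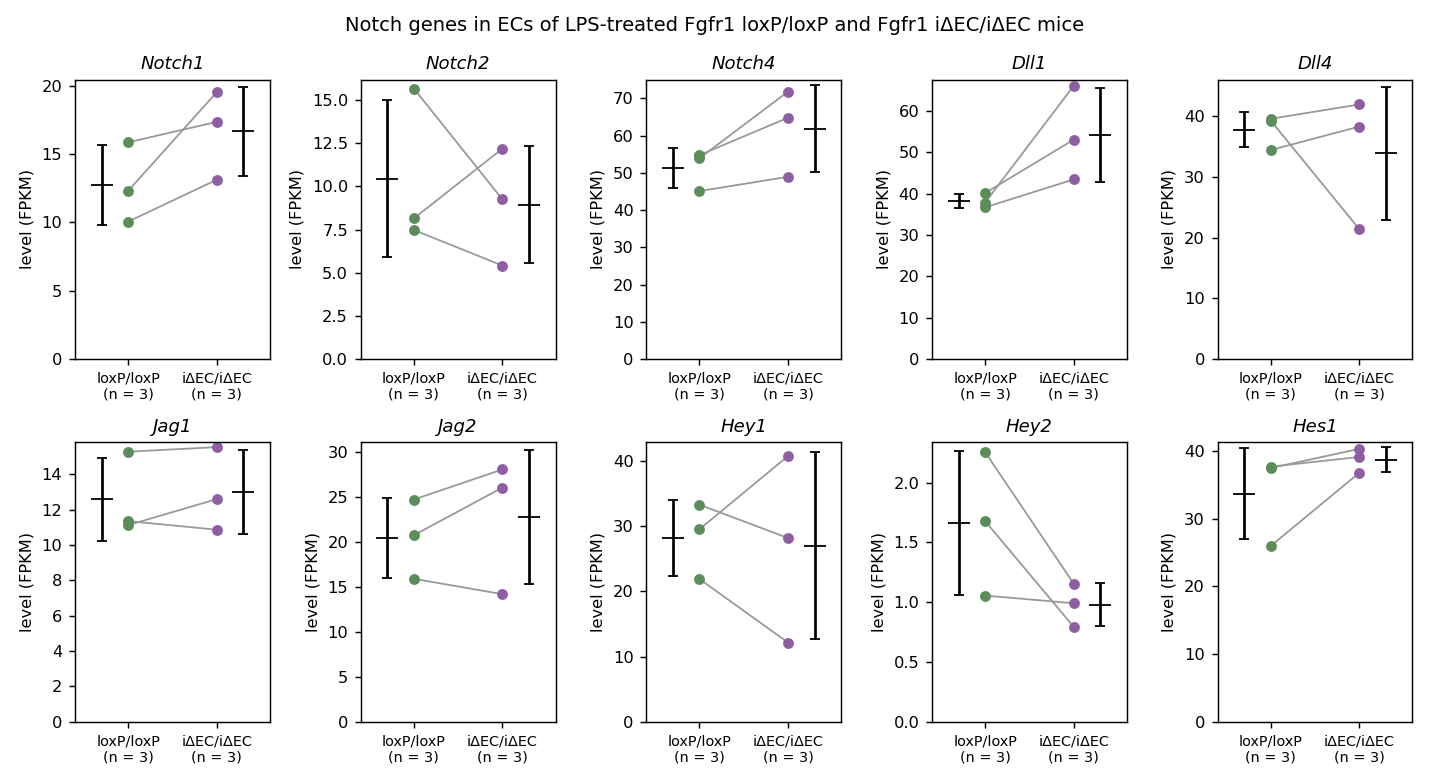
Level of each gene in FPKM (vertical axes, from 0) in loxP/loxP (green) and iΔEC/iΔEC (purple) libraries, with lines between libraries of the same number and the group mean and SD in black. Dll1 is the gene whose groups do not overlap, with 36.7 to 40.1 against 43.4 to 66.1 FPKM.

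Shares within the families were also read in both genotypes. Notch4 made up 69.3% ± 5.13 of the receptors in loxP/loxP and 70.3% ± 4.18 in iΔEC/iΔEC (SD, n = 3 each), Notch1 17.0% ± 1.27 and 19.0% ± 1.26, and Notch2 13.7% ± 4.08 and 10.7% ± 5.44. Dll1 made up 35.1% ± 1.20 of the ligands in loxP/loxP and 44.2% ± 4.33 in iΔEC/iΔEC, with the highest loxP/loxP share (36.0%) under the lowest iΔEC/iΔEC share (39.7%), and Dll4 34.7% ± 3.75 and 27.0% ± 3.92. Of 42 other pathway genes tested here 0 were called, the groups did not overlap in 5 of them (10.2% of all genes had none), and the median log2 fold change was 0.05. The lists of other cells did not differ past the test either, with adjusted exact permutation p of 0.675 or more for each of the 9 lists and overlapping groups in all of them, where 3 libraries against 3 cannot go under an unadjusted p of 0.1. The epithelial list was at -0.68, with 10 of 10 genes under 0 in iΔEC/iΔEC, the neutrophil list at -0.47 (8 of 8 genes) and the leukocyte list at -0.25 (6 of 6 genes). The lymphocyte list was at -0.35, the mural at -0.24, the macrophage at -0.15, the fibroblast at -0.14 and the erythroid at 0.33, and their part in the values of the Notch genes was not tested.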

How the data were processed

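The authors aligned the reads to GRCm38 (mm10 in the labels) with HISAT2 2.0.5, counted them on genes with featureCounts 1.5.0-p3 and deposited FPKM values for 2 experiments in separate tables, which were compared only within a table. FPKM times gene length, divided by the value of 1 read, gave whole numbers for 100.0% of values (tolerance 0.05), and the library sizes within FPKM equalled median-of-ratios factors within 0.182%. The study's methods name a test for counts. Since FPKM are not counts, limma 3.58.1 (R 4.3.3, lmFit and eBayes with trend) was run on log2(FPKM + 1) after median-of-ratios scaling, over genes with a mean of 0.5 FPKM or more, with Benjamini-Hochberg adjustment over all of them. A fold change on this scale understates the change of low genes. Calls needed an adjusted p at or under 0.05, and a stricter count also needed a log2 fold change of 1, since the study's limit on the fold can be read either way. Replicates differed beyond sampling noise in all 27 pairs (smallest mean chi-square per gene 7.28).

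The 10 members and all gene lists were chosen with earlier results of these data known. Named were the members, Fgfr1, each pathway or arterial gene called with an absolute log2 fold change of 0.5 or more, Notch3, Rbpj, Heyl, Nrarp, Lfng and Egfl7 whatever they showed, and the 2 genes nearest in pattern to each member. Adam10, Hes6, Siglecf, Unc5b, Sox17 and Cxcr4 fall outside this rule and were added after their values were seen. Of the genes the rule names, 1 is not reported here. Each of 9 marker lists was summarised as a mean per library, tested by an exact permutation test (two-sided) and adjusted over the lists. Same-numbered libraries of the Fgfr1 groups deviated together (correlations of 0.25, 0.18 and 0.19 over genes), so their numbers were taken as pairs from the data, and those of saline and LPS (0.10, -0.16, -0.21 and -0.12) were not. The pairs entered the counts of pairs and the replicate block only, and the main fit and its intervals took the libraries as unpaired. Alternatives were a pseudocount of 0.1, no filter or a filter of 2 FPKM, scaling on total reads, quantile normalization, scaling on the endothelial list, limma-voom on the read numbers, the replicate block and leaving out each library. The limma fit was checked on simulated data. Python 3.11.15, pandas 2.3.3, numpy 2.4.6, scipy 1.17.1 and matplotlib 3.10.9 were used. Gene ends were compared with GENCODE M21, in which 98.3% of the 54409 identifiers found have the same ends, and promoters come from RefSeq.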

Additional observations from a re-analysis of the deposited data

Results flagged for a closer look

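In the saline (n = 4) and LPS (n = 6) groups a value was singled out where 1 library lay far from the rest of its group relative to the range of the group. The Fgfr1 groups (n = 3 each) were not examined in this way. Of 86 group values examined 6 were singled out, and chance alone gives about 1 in 20, or 4.3. Jag2 was at 40.8 FPKM in saline 1, with the other saline libraries at 12.3 to 15.6. Furin was at 21.8 FPKM in saline 1, where the others were at or under 13.2. Dtx3 was at 18.5 FPKM in saline 3, against 20.9 to 21.1. Notch3 was at 3.33 FPKM in saline 3 (8.16 to 8.62 in the other saline libraries) and at 5.15 FPKM in LPS 6 (1.25 to 2.69 in the other LPS libraries). The lymphocyte list had a mean log2(FPKM + 1) of 1.80 in saline 3, against 3.29 to 3.43 in the others. Without saline 3 the log2 fold change of Notch3 was -1.46, and without LPS 6 it was -1.34, both past the test (limma adjusted p = 0.0014 and 0.00154).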

How the results depend on the processing

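The log2 fold changes of Hey1 and Notch2 in LPS kept their direction and their call under every alternative run, and Notch1 lost its call under endothelial list scaling alone. That scaling counts 3 Notch genes as higher and 1 as lower, against 1 and 5, and among the other pathway genes 22 higher and 3 lower, against 14 and 11. Over all genes it gave 7419 higher and 777 lower, against 4399 and 3529. It turned Notch4 (0.10), Jag1 (0.27), Jag2 (0.43), Hes1 (0.55), Egfl7 (0.52), Mib1 (0.028), Nrarp (0.56) and Rfng (0.18) to positive values in LPS, and Notch4 (-0.0060), Jag1 (-0.20), Jag2 (-0.14) and Hes1 (-0.043) to negative values in iΔEC/iΔEC. These signs follow the shift that the scaling gives to all genes, whose median moved to 0.59 in LPS and -0.19 in iΔEC/iΔEC, and in LPS all 8 lie under that median. With no filter on low values, where more genes enter the adjustment, 3 Notch genes and 7 other pathway genes were lower. Of all 36342 genes tested in that way 3782 were lower. Quantile normalization gave 7 Notch genes lower and 9 other pathway genes higher, with 4295 lower and 3570 higher over all genes. Scaling on total reads gave 6 Notch genes and 4621 of all genes lower, moved the median of all genes to -0.14 and turned Jag1 in iΔEC/iΔEC to -0.021. A log2 fold change of 1 in addition left 3 Notch genes lower, 5 other pathway genes higher and 5 lower, and 1768 and 1011 of all genes. Leaving out 1 library gave 1 to 2 Notch genes higher (2 without saline 1 or LPS 1) and 3 to 6 lower (3 without saline 2), and 7 to 11 other pathway genes lower (7 without saline 2, saline 4, LPS 1, LPS 2 or LPS 5). Over all genes the same tests gave 3820 to 4624 higher and 2893 to 3751 lower (2896 without saline 2). Leaving out 1 library moved Jag2 in LPS from -0.46 to 0.095 (without saline 1) and Nrarp from -0.17 to 0.076 (without LPS 1). In iΔEC/iΔEC, where no gene passed, it moved Notch2 from -0.43 to 0.12, Dll4 from -0.38 to 0.086, Jag1 from -0.082 to 0.18, Jag2 from -0.059 to 0.41 and Hey1 from -0.56 to 0.28.

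With 1 library left out the marker lists differed between saline and LPS by -0.83 to -0.61 (endothelial), 2.57 to 3.00 (leukocyte), 2.24 to 3.33 (neutrophil), 2.62 to 2.81 (macrophage), 0.95 to 1.36 (erythroid), -0.72 to -0.47 (fibroblast), -1.21 to -0.67 (lymphocyte), -0.81 to -0.31 (epithelial) and -0.48 to -0.0036 (mural). A pseudocount of 0.1 gave -0.57 for the fibroblast list, which then missed an adjusted p of 0.05, as it did in 8 of 10 tests without 1 library, and the erythroid list missed it in 5 of 10. Without saline 3 the lymphocyte list passed. Quantile normalization gave -0.95 and -0.93 for the lymphocyte and epithelial lists, which then passed. Between the Fgfr1 groups the ranges were -0.54 to 0.00085 (leukocyte), -0.39 to 0.22 (macrophage), -0.33 to 0.10 (fibroblast) and -0.14 to 0.89 (erythroid).

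The replicate block changed no call in the Fgfr1 groups, where Dll1 was at 0.47 with and without it. In saline and LPS the numbers do not pair the libraries, and a fit with the block called 3438 genes higher and 2561 lower and left Hey2 at -0.51 (limma adjusted p = 0.119). Hey2 rests on 24 to 170 and Dtx1 on 15 to 237 reads per library.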

Other observations

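Among the other pathway genes in the Fgfr1 groups, 5 of 42 had groups that did not overlap, near the 10.2% of all genes, and none was called (limma adjusted p = 0.962 for each). The 4 named here were chosen after their values were seen. Egfl7, the secreted endothelial protein that binds Notch, was at 286, 285 and 230 FPKM in loxP/loxP 1 to 3 and at 407, 299.95 and 330 FPKM in iΔEC/iΔEC 1 to 3. Nrarp, the Notch target and inhibitor, was at 7.97, 8.47 and 5.52 against 9.91, 9.06 and 8.95 FPKM. The γ-secretase subunit Ncstn was at 38.9, 36.9 and 35.7 against 44.8, 41.9 and 41.0 FPKM. Dtx1 was the 1 that was lower, at 2.64, 2.61 and 2.24 against 1.01, 2.21 and 2.03 FPKM. The endothelial list was higher in iΔEC/iΔEC by 0.26 on the log2 scale (adjusted exact permutation p = 0.675), and its part in these values was not tested.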
